A study of Mus musculus with 12 samples.

Results

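A set of 10 genes of serine synthesis and one-carbon metabolism was followed across myeloid-derived suppressor cells (MDSCs) from mouse liver tumors: Phgdh, Psat1, Psph, Shmt1, Shmt2, Mthfd1, Mthfd2, Mthfd1l, Asns and Atf4. They are 10 of the 24346 gene symbols in the data, and each symbol was found in all 12 libraries. The genes were chosen from earlier results on these same libraries, by their levels in the 6 groups. Their levels and differences are therefore given as descriptions, with standard errors and without p-values. They were part of the fit across all genes, but no test of them is read: in every comparison the number that differed by more than 1.5-fold and the share of all genes called are set side by side only as a description, since the same values chose the genes. Tests are read for 128 genes of neighbouring pathways, which were listed by function with earlier results of these libraries known.

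RNA was sequenced from monocytic M-MDSCs (CD11b+ Ly-6Chi Ly-6G-) and polymorphonuclear PMN-MDSCs (CD11b+ Ly-6Cint Ly-6G+), which are immature myeloid cells that suppress T cells. The cells were sorted by flow cytometry from liver tumors of wild-type female C57BL/6J mice, 6 to 8 weeks old, that carried orthotopic Hepa 1-6 tumors; Hepa 1-6 is a mouse hepatoma line. Mice received vehicle, MS-275 or CXD101, which both inhibit histone deacetylases (HDACs) 1, 2 and 3, the enzymes that remove acetyl groups from histones. Each subset was represented by 2 libraries per treatment. In the M-MDSC experiment both inhibitors were injected intraperitoneally every day, at equal doses by weight, once tumors had been established. The dose and schedule behind the PMN-MDSC libraries are not given in the sources used here. Mice had been selected by their share of MDSCs in blood, and nothing says whether the cells of several mice were pooled. The sort gates define both subsets by surface proteins only.

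Replicate libraries correlated across genes with r from 0.9945 to 0.9961, and none held the same values as another. The steps between low FPKM values gave about 8500000 to 10800000 reads per library in M-MDSCs and 7140000 to 8240000 in PMN-MDSCs. Under vehicle, all 7 neutrophil markers that were found were called higher in the PMN-MDSC libraries. So were 2 of 7 monocyte markers, of which 4 were lower, 4 of 6 macrophage markers, of which 1 was lower, and 3 of 7 granule genes of immature neutrophils, of which 4 were lower. Itgam, which encodes CD11b, was between 256.6 and 895 FPKM in every library. Ly6g, also listed as a neutrophil marker, was not found among the gene symbols and could not be checked. Transcripts of hepatocytes and liver tumor summed to at most 7.83 FPKM in any library, with Ttr, Serpina1a, Krt8 and Fgb at 0 in every group. Transcripts of S100a8 and S100a9, abundant calcium-binding proteins of neutrophils, took 1.78% to 4.28% of all FPKM in M-MDSC libraries, 10.2% and 13.7% in PMN-MDSCs under vehicle, and 27.3% to 30.9% in PMN-MDSCs under an inhibitor. Because FPKM is scaled to the mapped reads of a library, a few abundant genes can move all others. Differences in PMN-MDSCs are also given below after libraries were rescaled to their summed FPKM with these 2 genes left out of the total. Summed FPKM ran from 564078 to 860841 between libraries, so this rescaling does not undo the share of reads these 2 genes took.

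Serine is made from the glycolytic intermediate 3-phosphoglycerate by the enzymes encoded by Phgdh, Psat1 and Psph, in that order. Serine hydroxymethyltransferases, SHMT1 in the cytosol and SHMT2 in mitochondria, pass a carbon from serine to tetrahydrofolate, and the MTHFD enzymes carry that carbon through its oxidation states between mitochondria and cytosol. The carbon units serve the synthesis of purines, thymidylate and methionine, so the pathway is known for its high activity in dividing cells. ATF4 is the transcription factor of the integrated stress response, which is set off when amino acids are scarce or the endoplasmic reticulum is stressed, and many genes of serine synthesis as well as Asns are among its known targets.

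ATF4 binds amino acid response elements, which contain the letters TGATGNAA. These letters were searched on both strands of the 250 bases before the RefSeq start sites of GRCm38.p6. All 10 symbols matched, with 11 start sites. The letters were found before Asns and before none of the other 9 genes, and in 3.45% of all 32851 start sites. Of 22 matched genes of the stress response list described below, 6 held the letters. The E-box letters CACGTG, which bind MYC, were before none of the 10 genes and in 6.02% of all start sites. The element of Asns is shown with those of Atf3, Chac1, Nupr1 and Slc7a11, stress response genes that moved in different directions in the data. They are shown because they are named below and hold the letters. Each stretch is written 5′ to 3′ on the strand of its gene, with the element in capitals. Where the element lies on the other strand, the capitals read as its reverse complement.

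Asns: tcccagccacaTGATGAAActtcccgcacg
Chac1: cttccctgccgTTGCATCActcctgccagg
Nupr1: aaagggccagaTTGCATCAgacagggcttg
Atf3: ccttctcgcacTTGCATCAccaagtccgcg
Slc7a11: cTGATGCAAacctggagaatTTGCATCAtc

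The stretch of Asns lies at chr6:7693214-7693243 on the minus strand, where the GENCODE annotation places the first, untranslated exon of the gene. Those of the stress response genes lie at chr2:119351038-119351067 on the plus strand (Chac1) and, on the minus strand, at chr7:126625562-126625591 (Nupr1), chr1:191183425-191183454 (Atf3) and chr3:50443651-50443680 (Slc7a11). A match of letters is a description of the sequence and not a measurement of binding.

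Under vehicle, each of the 10 genes was at a lower level in PMN-MDSCs, and for 9 of them the level in M-MDSCs was between 2.14 and 3.99 times that in PMN-MDSCs. Atf4 differed least, with a ratio of 1.27. For every gene the 6 M-MDSC libraries, treated or not, were all above the 6 PMN-MDSC libraries. These levels chose the genes and the share of all genes with such a gap was not counted, so nothing is read from it. In bulk libraries, fewer cells that express a gene and less RNA per cell cannot be told apart. The plot of FPKM in the 12 libraries shows this gap beside the smaller shifts within each subset.

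**Figure D1:**
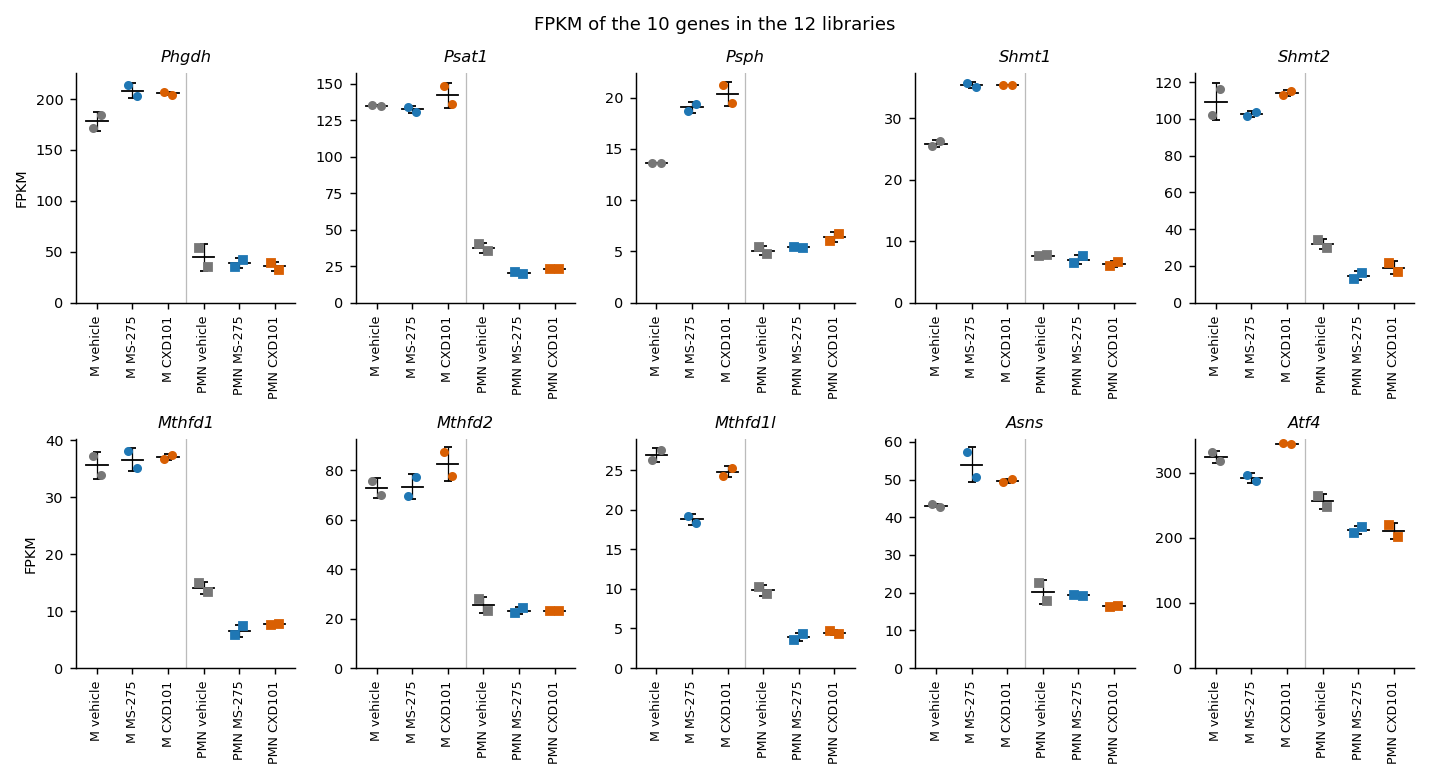
FPKM (vertical axes, from 0) of the 10 genes in the 12 libraries, by subset (circles, M-MDSCs; squares, PMN-MDSCs) and treatment; points are libraries, lines are the means of 2 libraries and bars the SD. All M-MDSC libraries lie above all PMN-MDSC libraries for each gene, and Psat1, Shmt2, Mthfd1 and Mthfd1l are lower in PMN-MDSCs under both inhibitors than under vehicle. The genes were chosen by these levels.

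Phgdh (chr3:98313170-98339990, minus strand; all gene positions are GRCm38 with GENCODE annotation) encodes phosphoglycerate dehydrogenase, the first enzyme of serine synthesis. Its M-MDSC libraries were at 172 and 185 FPKM under vehicle, 214 and 203 under MS-275 and 207 and 204 under CXD101. The 4 treated libraries were above both vehicle libraries. Its PMN-MDSC libraries were at 54.04 and 35.2 FPKM under vehicle, 35.3 and 42.2 under MS-275 and 39.00 and 32.5 under CXD101. Here the groups overlapped, since one vehicle library stood well above the other, and the difference between the subsets under vehicle was -2.00 ± 0.16 on the log2(FPKM + 1) scale, given throughout with its standard error.

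Psat1 (chr19:15904678-15947337, minus strand) encodes phosphoserine aminotransferase, the second enzyme. Its levels in M-MDSCs were 135 and 135 FPKM under vehicle, 134 and 131 under MS-275 and 148 and 136 under CXD101. The MS-275 libraries were just below and the CXD101 libraries above both vehicle libraries. In PMN-MDSCs they were 40.05 and 35.2 FPKM under vehicle, 20.7 and 19.7 under MS-275 and 23.4 and 23.1 under CXD101. There all treated libraries were below both vehicle libraries. A processed pseudogene, Gm3329, overlaps the gene on the other strand, and as it is not stated whether counting used strand, reads of overlapping genes cannot be told apart here or below.

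Psph encodes phosphoserine phosphatase, the last enzyme, and had the lowest level of the 10 genes in both subsets under vehicle. Its locus (chr5:129765558-129787449, minus strand) is overlapped by Cct6a on the other strand. In M-MDSCs it was at 13.6 and 13.6 FPKM under vehicle, 18.7 and 19.4 under MS-275 and 21.2 and 19.5 under CXD101, with all treated libraries above both vehicle libraries. In PMN-MDSCs it was at 5.39 and 4.76 FPKM under vehicle, 5.49 and 5.29 under MS-275 and 6.03 and 6.73 under CXD101. It was the only one of the 10 genes whose mean in PMN-MDSCs was higher under each inhibitor than under vehicle, although the MS-275 libraries overlapped with the vehicle libraries.

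The summed FPKM of these 3 genes was 327 ± 8.61 (SD, n = 2) in M-MDSCs under vehicle, 360 ± 9.46 under MS-275 and 368 ± 11.4 under CXD101. In PMN-MDSCs it was 87.3 ± 17.2 under vehicle, 64.4 ± 4.01 under MS-275 and 65.4 ± 4.29 under CXD101. The ratio of Psat1 to Psph, both in FPKM and so per length, was 7.40 and 7.43 in PMN-MDSCs under vehicle, 3.73 to 3.78 under MS-275 and 3.44 to 3.88 under CXD101. In M-MDSCs it was 9.89 to 9.93 under vehicle and 6.74 to 7.18 in the treated libraries.

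Shmt1 encodes the cytosolic serine hydroxymethyltransferase (chr11:60788104-60811718, minus strand), and Smcr8 and a small RNA gene overlap it on the other strand. M-MDSCs held 25.4 and 26.2 FPKM under vehicle, 35.7 and 35.01 under MS-275 and 35.4 and 35.5 under CXD101. All treated libraries were above both vehicle libraries, and the inhibitors gave nearly the same level. PMN-MDSCs held 7.61 and 7.75 FPKM under vehicle, 6.46 and 7.59 under MS-275 and 5.95 and 6.61 under CXD101, with the treated libraries just below those of vehicle.

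Shmt2 encodes the mitochondrial enzyme (chr10:127517123-127522444, minus strand), and Ndufa4l2 overlaps it on the other strand. Its levels in M-MDSCs were 102 and 116 FPKM under vehicle, 101 and 104 under MS-275 and 113 and 115 under CXD101, and the treated groups overlapped with vehicle. In PMN-MDSCs they were 33.97 and 29.97 FPKM under vehicle, 13.1 and 16.3 under MS-275 and 21.6 and 16.8 under CXD101. All treated libraries were below both vehicle libraries there. The FPKM of Shmt2 was 4.01 to 4.44 times that of Shmt1 in M-MDSCs under vehicle and 3.86 to 4.47 times in PMN-MDSCs, but 2.84 to 2.96 and 2.04 to 2.15 times under MS-275. Under CXD101 it was 3.19 to 3.25 times in M-MDSCs and 2.54 to 3.63 times in PMN-MDSCs.

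Mthfd1 encodes the cytosolic enzyme with 3 activities that interconverts the folate-bound carbon units. Its locus (chr12:76255298-76319803, plus strand) is overlapped by 3 noncoding genes or pseudogenes on the other strand. Its M-MDSC libraries were at 37.3 and 33.9 FPKM under vehicle, 38.1 and 35.2 under MS-275 and 36.8 and 37.4 under CXD101, with overlapping groups. Its PMN-MDSC libraries were at 14.9 and 13.4 FPKM under vehicle, 5.74 and 7.31 under MS-275 and 7.59 and 7.77 under CXD101, and both treated groups were below vehicle.

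Mthfd2 encodes the mitochondrial dehydrogenase and cyclohydrolase (chr6:83305691-83325908, minus strand). In M-MDSCs it was at 75.6 and 69.8 FPKM under vehicle, 69.7 and 77.01 under MS-275 and 87.4 and 77.7 under CXD101. In PMN-MDSCs it was at 27.8 and 23.2 FPKM under vehicle, 22.2 and 24.1 under MS-275 and 23.2 and 22.9 under CXD101. The MS-275 libraries overlapped with vehicle in each subset, while the CXD101 libraries lay above both vehicle libraries in M-MDSCs and just below them in PMN-MDSCs. The ratio of Mthfd2 to Mthfd1 was 1.73 to 1.87 in PMN-MDSCs under vehicle, 3.30 to 3.87 under MS-275 and 2.94 to 3.05 under CXD101, while in M-MDSCs it stayed between 1.83 and 2.38 in all 6 libraries. Mthfd2l, the close relative of Mthfd2, was between 0.728 and 2.24 FPKM throughout.

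Mthfd1l encodes the mitochondrial formyltetrahydrofolate synthetase, which releases formate for use in the cytosol (chr10:3973118-4167081, plus strand). Among the 10 genes it had the lowest difference between MS-275 and vehicle in each subset, on the log2(FPKM + 1) scale. M-MDSCs held 26.3 and 27.5 FPKM under vehicle, 19.2 and 18.3 under MS-275 and 24.3 and 25.3 under CXD101. The CXD101 libraries lay between the other groups. PMN-MDSCs held 10.3 and 9.33 FPKM under vehicle, 3.56 and 4.29 under MS-275 and 4.71 and 4.25 under CXD101, the lowest level of any of the 10 genes under either inhibitor.

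Asns encodes asparagine synthetase, which makes asparagine from aspartate and glutamine and is a classical target of ATF4 (chr6:7675169-7693254, minus strand). Its M-MDSC libraries were at 43.5 and 42.8 FPKM under vehicle, 57.4 and 50.6 under MS-275 and 49.2 and 50.1 under CXD101, with all treated libraries above vehicle. Its PMN-MDSC libraries were at 22.5 and 17.9 FPKM under vehicle, 19.3 and 19.2 under MS-275 and 16.2 and 16.5 under CXD101. There the MS-275 libraries lay between the vehicle libraries and the CXD101 libraries lay below them.

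Atf4 (chr15:80255184-80257541, plus strand) was the most abundant transcript of the 10 in all 6 groups. In M-MDSCs it was at 331 and 318 FPKM under vehicle, 297 and 286 under MS-275 and 345 and 343 under CXD101. The MS-275 libraries were below and the CXD101 libraries above both vehicle libraries. In PMN-MDSCs it was at 264 and 248 FPKM under vehicle, 207 and 216 under MS-275 and 219 and 201 under CXD101, and both treated groups were below vehicle. ATF4 is controlled to a large part at translation, which these RNA levels do not measure.

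The order of the group means put the 3 M-MDSC groups above the 3 PMN-MDSC groups for each of the 10 genes. In M-MDSCs, vehicle was the lowest group, with no overlap, for Phgdh, Psph, Shmt1 and Asns, and the highest for Mthfd1l. In PMN-MDSCs, vehicle had the highest mean for 9 genes, and the exception was Psph. All 3 M-MDSC groups overlapped with their neighbours in the order for Shmt2 and Mthfd1, and all 3 PMN-MDSC groups did for Phgdh and Mthfd2. In M-MDSCs the inhibitor groups also overlapped for Phgdh and Shmt1, and MS-275 with vehicle for Mthfd2. In PMN-MDSCs the inhibitor groups overlapped for Shmt1, Mthfd1l and Atf4, and MS-275 with vehicle for Psph and Asns. The other neighbours did not overlap, with 2 libraries in each group. The share of all genes with such an order or without overlap was not counted, and the genes were chosen by these levels. Nothing is therefore read from the order or the overlaps.

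In M-MDSCs none of the 10 differed from vehicle by more than 1.5-fold on the log2(FPKM + 1) scale. Over all 11078 genes tested with limma, where a call required this fold and an adjusted p under 0.05, 10.1% were called higher and 7.32% lower under MS-275, and 5.14% and 3.0% under CXD101. The largest increases under MS-275 were those of Psph (0.45 ± 0.076), Shmt1 (0.44 ± 0.062), Asns (0.32 ± 0.072) and Phgdh (0.23 ± 0.059), and the largest decrease that of Mthfd1l (-0.50 ± 0.071). Under CXD101 they were those of Psph (0.54 ± 0.076), Shmt1 (0.44 ± 0.062), Phgdh (0.21 ± 0.059) and Asns (0.20 ± 0.072), and Mthfd1l changed by -0.11 ± 0.071. The median over the 10 genes was 0.026 under MS-275 and 0.13 under CXD101, beside medians of -0.059 and -0.022 over all genes tested. The difference of Psph under CXD101 was 0.60, past 1.5-fold, without CXD101 replicate 2, and 0.49 without CXD101 replicate 1.

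Markers of the sorted cells and of other cells moved in the same M-MDSC libraries. Of 7 neutrophil markers, 5 rose and 1 fell under each inhibitor, and they summed to 10698 to 11486 FPKM under vehicle, 21653 to 25577 under MS-275 and 21027 to 22322 under CXD101. Most of each sum is S100a8 and S100a9, whose share is given above. The 7 immature neutrophil granule genes summed to 2302 to 2409 FPKM under vehicle, 4992 to 5369 under MS-275 and 4905 to 4948 under CXD101. Of these granule genes, 3 rose under each inhibitor and 2 fell under MS-275. The 7 monocyte markers summed to 1873 to 1951 FPKM under vehicle, 2907 to 2961 under MS-275 and 2574 to 2659 under CXD101. Of the 6 monocyte markers tested, 2 rose and 0 fell under each inhibitor. The 5 progenitor markers summed to 7.33 to 8.65 FPKM under vehicle, 86.2 to 87.4 under MS-275 and 27.8 to 28.2 under CXD101, and the 3 that were tested rose under each inhibitor. The 5 eosinophil markers summed to 10.2 to 14.95 FPKM under vehicle, 144 to 163 under MS-275 and 112 to 123 under CXD101, and the 3 that were tested rose as well. Of 6 macrophage markers, 4 fell under MS-275 and 3 under CXD101, and their sum was 145 to 147 FPKM under vehicle, 75.2 to 81.3 under MS-275 and 119 to 137 under CXD101. Of 14 proliferation genes, 2 fell under MS-275 and 0 passed both limits under CXD101. There limma gave 7 at an unadjusted and 5 at an adjusted p under 0.05, all short of the fold limit. The part of these shifts in the levels of the 10 genes was not tested.

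In PMN-MDSCs, 4 of the 10 genes were lower by more than 1.5-fold under each inhibitor, and they were Psat1, Shmt2, Mthfd1 and Mthfd1l both times. The comparisons with the inhibitors share the vehicle libraries. Among all 11184 genes tested, 14.2% were called lower and 14.6% higher under MS-275, and 9.54% and 11.9% under CXD101. The median over the 10 genes was -0.22 and -0.28, beside -0.027 and -0.026 over all genes tested. Since the genes were chosen on these values, nothing is read from the counts.

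Mitochondrial Mthfd1l and Shmt2 had the largest differences under MS-275. The difference of Mthfd1l was -1.14 ± 0.13 with MS-275 and -0.98 ± 0.13 with CXD101, so that vehicle was 2.50 and 2.19 times as high in FPKM. Shmt2 differed by -1.07 ± 0.15 and -0.72 ± 0.15. Of the cytosolic enzymes, Mthfd1 differed by -1.01 ± 0.13 and -0.80 ± 0.13, whereas Shmt1 differed by -0.12 ± 0.12 and -0.26 ± 0.12. In serine synthesis, Psat1 differed by -0.86 ± 0.087 and -0.67 ± 0.087, while Phgdh (-0.17 ± 0.19 and -0.29 ± 0.19) and Psph (0.074 ± 0.12 and 0.28 ± 0.12) stayed within 1.5-fold. Atf4 itself was lower by small steps, -0.27 ± 0.068 and -0.28 ± 0.068, and Asns and Mthfd2 differed by at most -0.28 ± 0.11.

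Some of these differences rested on 1 library. Under CXD101, the difference of Psat1 was -0.58 without vehicle replicate 1 and that of Shmt2 was -0.54 without CXD101 replicate 2, both short of 1.5-fold. That of Phgdh depended on which vehicle library was used. Without vehicle replicate 2 it was -0.47 for MS-275 and -0.59 for CXD101, and without vehicle replicate 1 it turned to 0.13 and 0.017. After S100a8 and S100a9 were left out of the total, the 4 genes were lower by slightly more, with -0.91 for Psat1, -1.12 for Shmt2, -1.06 for Mthfd1 and -1.18 for Mthfd1l under MS-275. Asns moved from -0.056 to -0.10 and Phgdh from -0.17 to -0.22 with the same change.

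**Figure D2:**
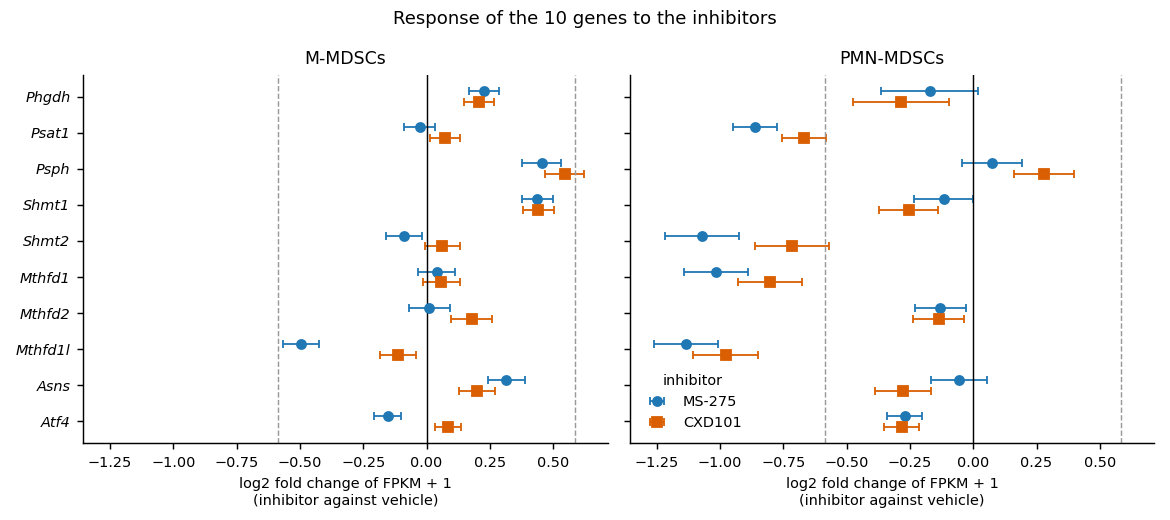
Log2 fold change of FPKM + 1 (horizontal axis) against vehicle for the 10 genes in M-MDSCs (left) and PMN-MDSCs (right); points are estimates for MS-275 and CXD101 and bars the standard error, and dashed lines mark a fold change of 1.5. In M-MDSCs all points lie within the dashed lines, and in PMN-MDSCs those of Psat1, Shmt2, Mthfd1 and Mthfd1l lie below the lower line.

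Markers moved in the same PMN-MDSC libraries too. Of 7 neutrophil markers, 5 rose under each inhibitor and 1 fell under MS-275, and of 7 monocyte markers 2 rose and 2 fell under each. The 5 progenitor markers summed to 20.01 to 20.4 FPKM under vehicle, 61.1 to 61.2 under MS-275 and 54.4 to 54.9 under CXD101. The 7 granule genes of immature neutrophils, among them Mpo, Elane and Ltf, summed to 2794 to 2838 FPKM under vehicle, 20730 to 20764 under MS-275 and 26668 to 27218 under CXD101, and 4 of 7 rose under each inhibitor. Of 6 macrophage genes, 4 fell under each inhibitor and 1 rose under MS-275, and their sum went from 182 to 191 FPKM to 128 to 143 under MS-275 and 111 to 123 under CXD101. The 14 proliferation genes, such as Mki67 and Mcm4, summed to 573 to 637 FPKM under vehicle, 582 to 587 under MS-275 and 525 to 539 under CXD101. Of these 14 genes, 1 fell under MS-275 and 0 passed both limits under CXD101. There limma gave 6 at an unadjusted and 4 at an adjusted p under 0.05, all short of the fold limit. The part of a changed mixture of cells in the lower levels of the 4 genes was not tested.

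The subsets themselves also differed in proliferation genes. Under vehicle, 9 of the 10 genes were lower in PMN-MDSCs by more than 1.5-fold, while 16.8% of 11662 genes were called lower and 17.2% higher; nothing is read from this count, as the levels in these groups chose the genes. All 14 proliferation genes were called lower in PMN-MDSCs, with a median of -1.48, and they summed to 1570 to 1642 FPKM in M-MDSCs and 573 to 637 in PMN-MDSCs. The median over the 10 genes was -1.42, that over all genes tested -0.013. The differences were largest for Phgdh (-2.00 ± 0.16), Psat1 (-1.82 ± 0.07) and Shmt2 (-1.74 ± 0.12), followed by Shmt1 (-1.63 ± 0.084), Mthfd2 (-1.48 ± 0.10), Mthfd1l (-1.37 ± 0.094), Mthfd1 (-1.27 ± 0.10), Psph (-1.27 ± 0.088) and Asns (-1.07 ± 0.10). Atf4 differed by -0.34 ± 0.059, less than 1.5-fold. Whether the level of these genes followed the share of dividing cells was not tested.

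The responses of the subsets were compared in a model of all 12 libraries, as the response in PMN-MDSCs minus that in M-MDSCs. This difference was below 0 for each of the 10 genes under both inhibitors. Among all 11662 genes tested, it was below 0 for 5639 under MS-275 and 5915 under CXD101. Under MS-275 it was past 1.5-fold for 4 genes, which were Mthfd1 (-1.05 ± 0.14), Shmt2 (-0.98 ± 0.18), Psat1 (-0.83 ± 0.10) and Mthfd1l (-0.64 ± 0.13). Among all genes 9.48% were called below and 8.65% above 0. Under CXD101 it was past 1.5-fold for 5 genes, namely Mthfd1l (-0.87 ± 0.13), Mthfd1 (-0.86 ± 0.14), Shmt2 (-0.78 ± 0.18), Psat1 (-0.74 ± 0.10) and Shmt1 (-0.70 ± 0.12), while 6.59% of all genes were called below and 7.31% above 0. The responses to both inhibitors share the vehicle libraries. The values that chose the genes fix the shared sign and these counts in part, and nothing is read from them. The differences were smallest for Atf4 under MS-275 (-0.12 ± 0.083) and for Psph under CXD101 (-0.26 ± 0.12).

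The difference of Mthfd1l under MS-275 fell short of 1.5-fold without vehicle replicate 1 of PMN-MDSCs (-0.58) and without MS-275 replicate 1 (-0.53). That of Phgdh, -0.40 ± 0.23 under MS-275 and -0.49 ± 0.23 under CXD101, was -0.70 and -0.80 without vehicle replicate 2 of PMN-MDSCs but -0.094 and -0.19 without vehicle replicate 1. That of Asns under CXD101 was -0.63 and -0.32 without these libraries. That of Shmt1 under MS-275 was -0.66 without MS-275 replicate 2 of PMN-MDSCs and -0.45 without MS-275 replicate 1. Leaving S100a8 and S100a9 out of the total shifted the median difference of all genes under MS-275 from 0.018 to -0.090, and the genes called above and below 0 went from 1009 and 1106 to 727 and 1469. The 10 genes moved with that shift, Shmt1 to -0.67, past 1.5-fold, Phgdh to -0.52 and Atf4 to -0.24.

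**Figure D3:**
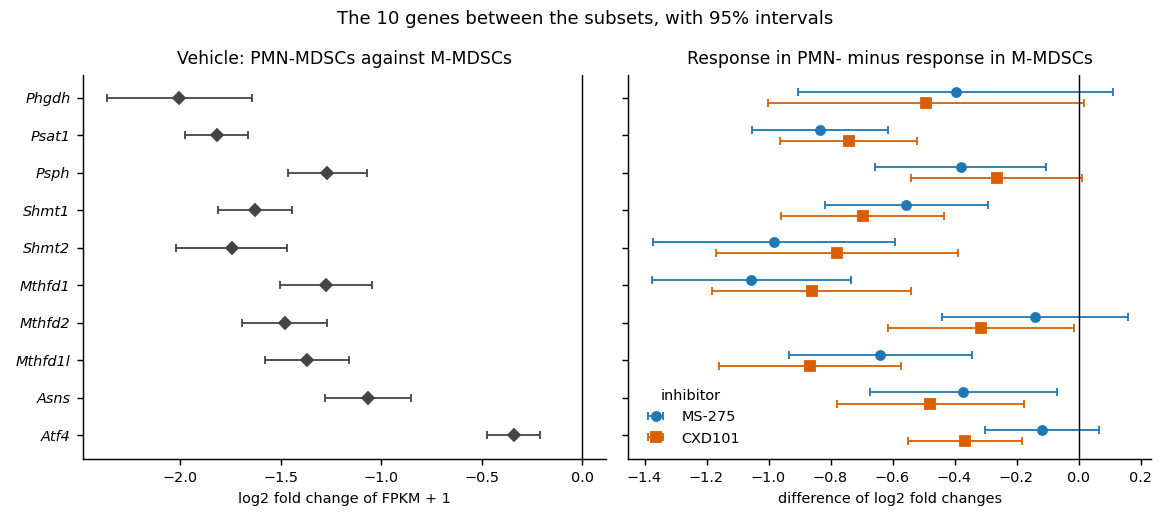
Left, log2 fold change of FPKM + 1 of PMN-MDSCs against M-MDSCs under vehicle for the 10 genes; right, the response in PMN-MDSCs minus the response in M-MDSCs for MS-275 and CXD101. Points are estimates and bars 95% intervals over 2 libraries per group. All points lie below 0. The same values chose the genes, so the intervals are a description and are not read as tests.

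MS-275 and CXD101, whose dose was given as the same in M-MDSCs, were compared directly in each subset for the 10 genes. None of these 20 differences was past 1.5-fold, beside 3.22% and 1.17% of all genes called higher and lower under MS-275 in M-MDSCs and 0.465% and 0.340% in PMN-MDSCs. In M-MDSCs the widest gap was that of Mthfd1l, at -0.39, with a 95% interval from -0.55 to -0.22, and both MS-275 libraries were below both CXD101 libraries. Atf4 was also lower under MS-275, at -0.24, with a 95% interval from -0.36 to -0.12. The other 8 genes ran from Mthfd2, at -0.17 (95% interval from -0.35 to 0.02), to Asns, at 0.12 (95% interval from -0.05 to 0.28). In PMN-MDSCs the largest difference was that of Shmt2, at -0.35, with a 95% interval from -0.69 to -0.018. Phgdh, at 0.11, had the widest interval, from -0.33 to 0.56. The same values chose the genes, so these intervals describe the spread between libraries and are not read as tests. Whether the PMN-MDSC groups received equal doses is not given in the sources used here.

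The neighbouring pathways were followed with 7 lists that hold 128 genes, of which 113 passed the filter on low values in M-MDSCs and 106 in PMN-MDSCs. Genes were tested with limma on the log2(FPKM + 1) scale with Benjamini-Hochberg adjustment over all genes, and a gene is said to rise or fall only where it passed an adjusted p under 0.05 and a fold change above 1.5. In M-MDSCs 7 of 113 rose and 4 fell under MS-275, and 4 rose and 2 fell under CXD101. In PMN-MDSCs 9 of 106 rose and 32 fell under MS-275, and 8 rose and 23 fell under CXD101. The median over the listed genes under MS-275 and CXD101 was -0.056 and 0.0033 in M-MDSCs and -0.27 and -0.26 in PMN-MDSCs; those over all genes, and the shares of all genes called, are given above. Some low genes passed the filter only through the groups where they were higher, and so had to differ. In M-MDSCs these were Amt, Cbs, Cth and Gls2, which were below 1 FPKM in both vehicle libraries and are counted among those that rose. In PMN-MDSCs they were Amt, below 1 FPKM under vehicle, and Aldh1l1, below it under both inhibitors and counted among those that fell. They are named after their values were seen, and their tests are not read. Between the inhibitors, 3 of 113 differed in M-MDSCs and 0 of 106 in PMN-MDSCs. In the latter limma gave 18 at an unadjusted p under 0.05 and 1 at an adjusted p under 0.05, short of the fold limit.

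**Figure D4:**
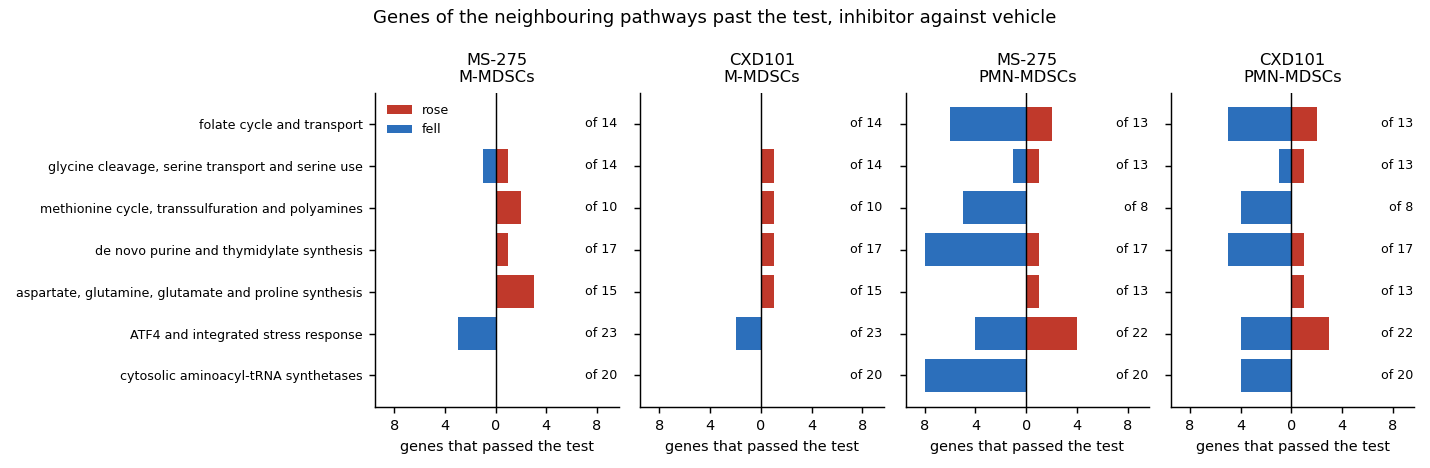
Number of genes of the 7 lists that rose (right of 0) or fell (left of 0) against vehicle in each subset and under each inhibitor, with the number tested at the right of each bar. In PMN-MDSCs the lists of purine synthesis, aminoacyl-tRNA synthetases, folate and methionine metabolism hold more genes that fell than rose, and in M-MDSCs each list holds at most 3 genes that passed. The bars include Amt, Cbs, Cth, Gls2 and Aldh1l1, whose tests are not read.

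Of the folate genes, 6 of 13 fell and 2 rose in PMN-MDSCs under MS-275, and 5 fell and 2 rose under CXD101. Those that fell include Aldh1l1, which passed the filter only through vehicle and whose test is not read. In M-MDSCs 0 of 14 passed under either inhibitor, where limma gave 7 under MS-275 and 4 under CXD101 at an unadjusted p under 0.05. At an adjusted p under 0.05 it gave 5 and 1, all short of the fold limit. Fpgs, which adds the glutamate tail that keeps folates in cells, went from 6.11 and 6.11 FPKM to 1.97 and 2.29 under MS-275 (-1.19 ± 0.14, adjusted p = 0.000332, limma) and 2.72 and 2.12 under CXD101 (-1.06 ± 0.14, adjusted p = 0.000829). Mtr, methionine synthase, fell as well (-0.94 ± 0.12, adjusted p = 0.00041 under MS-275 and -0.79 ± 0.12, adjusted p = 0.00139 under CXD101, limma). The opposite direction was seen for Ggh, the hydrolase that removes the glutamate tail, which went from 44.2 and 40.6 to 70.8 and 67.7 and 67.9 and 65.5 FPKM (0.70 ± 0.072, adjusted p = 0.000162 and 0.64 ± 0.072, adjusted p = 0.000366, limma). Mthfs, which returns formyl-folate to the active pool, rose from 13.3 and 17.97 to 33.03 and 32.6 under MS-275 (1.04 ± 0.14, adjusted p = 0.000536, limma) and to 23.9 and 27.7 under CXD101 (0.70 ± 0.14, adjusted p = 0.00482). Under CXD101 the calls of Mthfs and Ggh were lost without vehicle replicate 1 (0.49) and vehicle replicate 2 (0.58), respectively.

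In the list of glycine cleavage, serine transport and serine use, 1 of 13 genes fell and 1 rose in PMN-MDSCs under each inhibitor. Gcsh, the lipoyl-carrying protein of the mitochondrial glycine cleavage system, was at 22.8 and 30.04 FPKM under vehicle, 4.84 and 7.10 under MS-275 (-1.98 ± 0.18, adjusted p = 9.08e-05, limma) and 6.99 and 6.67 under CXD101 (-1.80 ± 0.18, adjusted p = 0.000235). In M-MDSCs it fell under MS-275, from 38.00 and 43.6 to 21.7 and 24.5 FPKM (-0.79 ± 0.11, adjusted p = 0.000696, limma), and was at 30.3 and 24.9 under CXD101. The gene counted as rising was Amt, the aminomethyltransferase of the same system, at 0.701 and 0 FPKM under vehicle, 5.24 and 4.20 under MS-275 and 2.60 and 1.71 under CXD101. Sfxn1, which carries serine into mitochondria, was between 25.7 and 31.1 FPKM in the PMN-MDSC libraries and did not pass. The serine and glutamine carrier Slc1a5 was at 53.7 and 48.3 FPKM under vehicle, 33.3 and 35.6 under MS-275 and 39.3 and 37.7 under CXD101 in these cells, with differences of -0.55 ± 0.081, adjusted p = 0.000895, and -0.39 ± 0.081, adjusted p = 0.00584 (limma), which were short of the fold limit. The genes of the last 3 sentences were singled out with their values known.

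The methionine cycle and polyamine list had 5 of 8 genes falling under MS-275 and 4 of 8 under CXD101 in PMN-MDSCs, and none rising. Mat2a, which makes S-adenosylmethionine, went from 59.6 and 61.7 FPKM to 26.5 and 28.6 under MS-275 (-1.11 ± 0.074, adjusted p = 2.33e-05, limma) and 32.5 and 33.8 under CXD101 (-0.85 ± 0.074, adjusted p = 0.000123). The polyamine enzymes Srm (-1.34 ± 0.11, adjusted p = 5.45e-05), Sms (-1.07 ± 0.13, adjusted p = 0.000307) and Odc1 (-1.03 ± 0.072, adjusted p = 2.82e-05) fell together with it under MS-275, and also under CXD101 (limma). In M-MDSCs these 4 genes did not pass the limits; Odc1 was at 121 and 128 FPKM under vehicle and 144 and 139 under MS-275.

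Of 17 genes of purine and thymidylate synthesis, 8 fell and 1 rose under MS-275 in PMN-MDSCs, and 5 fell and 1 rose under CXD101. Atic, which uses a folate-bound carbon in the last steps to inosine monophosphate, went from 45.2 and 43.4 FPKM to 15.4 and 15.5 under MS-275 (-1.46 ± 0.089, adjusted p = 1.52e-05, limma) and 23.1 and 20.1 under CXD101 (-1.01 ± 0.089, adjusted p = 0.000136). Paics, Ppat and Impdh2 also fell under MS-275 (-0.80 ± 0.10, adjusted p = 0.000435; -0.91 ± 0.13, adjusted p = 0.000784; -1.03 ± 0.11, adjusted p = 0.000162, limma), and Paics, Gart and Impdh2 under CXD101. The gene that rose was Impdh1, a paralog of Impdh2 with the same reaction in guanine nucleotide synthesis. It went from 13.96 and 12.6 to 21.1 and 22.7 FPKM in PMN-MDSCs under MS-275 (0.69 ± 0.091, adjusted p = 0.000558, limma) and from 16.6 and 18.2 to 38.3 and 38.97 in M-MDSCs (1.11 ± 0.11, adjusted p = 0.000121). Under CXD101 it rose in M-MDSCs (0.63 ± 0.11, adjusted p = 0.00536, limma) and in PMN-MDSCs (0.60 ± 0.091, adjusted p = 0.00149). Under CXD101 calls were lost for Gart without vehicle replicate 1 (-0.56) and for Impdh2 without CXD101 replicate 2 (-0.51). The call of Impdh1 was lost in PMN-MDSCs without vehicle replicate 2 (0.53), without CXD101 replicate 1 (0.56) and with S100a8 and S100a9 left out of the total (0.58). In M-MDSCs it was lost without vehicle replicate 1 (0.56) and without CXD101 replicate 2 (0.46).

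Among the 20 cytosolic aminoacyl-tRNA synthetases, which load amino acids onto tRNAs, 8 fell and 0 rose in PMN-MDSCs under MS-275, and 4 fell and 0 rose under CXD101 (limma). The largest falls under MS-275 were those of Iars (-1.12 ± 0.091, adjusted p = 5.6e-05), Farsb (-0.93 ± 0.093, adjusted p = 0.000142), Hars (-0.91 ± 0.075, adjusted p = 6.07e-05) and Tars (-0.81 ± 0.079, adjusted p = 0.000119). Sars, which loads serine, was at 37.95 and 33.3 FPKM under vehicle and 31.8 and 33.6 under MS-275 and did not pass; it was singled out for its amino acid with its values known. Under CXD101 the call of Farsb was lost without CXD101 replicate 2 (-0.54). In M-MDSCs none of the 20 passed both limits in either direction by limma, and their median was -0.10 under MS-275 and -0.04 under CXD101. There 7 and 3 had an unadjusted p under 0.05, and 6 and 2 an adjusted p under 0.05, all short of the fold limit.

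Of the 15 genes around aspartate, glutamine, glutamate and proline, 3 rose in M-MDSCs under MS-275 and 1 under CXD101. The 3 include Gls2, which passed the filter only through MS-275 and whose test is not read. Prodh, the first enzyme of proline breakdown, went from 5.12 and 5.20 FPKM to 11.1 and 11.8 under MS-275 (1.02 ± 0.10, adjusted p = 0.000107, limma) and 10.6 and 9.19 under CXD101 (0.82 ± 0.10, adjusted p = 0.000899). Gpt2, a mitochondrial alanine transaminase, rose under MS-275 from 4.18 and 4.15 to 9.37 and 8.12 (0.91 ± 0.10, adjusted p = 0.000238, limma). In PMN-MDSCs 1 of 13 rose, Asrgl1, an asparaginase, from 3.58 and 2.34 to 5.93 and 6.34 FPKM under MS-275 (0.87 ± 0.16, adjusted p = 0.00311, limma) and to 5.29 and 4.89 under CXD101 (0.64 ± 0.16, adjusted p = 0.0156). Under CXD101 its call was lost under quantile normalization (0.55), without vehicle replicate 2 (0.41), and without CXD101 replicate 1 (0.59) or 2 (0.69), where the adjusted p passed 0.05.

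Of 22 genes of the ATF4 and integrated stress response list, 4 rose and 4 fell in PMN-MDSCs under MS-275, beside 14.6% and 14.2% of all genes. Under CXD101, 3 rose and 4 fell, beside 11.9% and 9.54%. With so few genes, nothing is read about the list from these shares. Trib3, a pseudokinase that dampens ATF4, went from 7.66 and 6.94 FPKM to 18.9 and 17.1 under MS-275 (1.19 ± 0.11, adjusted p = 8.05e-05, limma) and 17.5 and 15.5 under CXD101 (1.08 ± 0.11, adjusted p = 0.000211). Chac1, which breaks down glutathione, went from 2.80 and 2.37 to 6.31 and 8.07 and 6.99 and 7.50 FPKM (1.19 ± 0.14, adjusted p = 0.000336 and 1.21 ± 0.14, adjusted p = 0.000478, limma). Ppp1r15b, a regulator of the phosphatase that reverses the stress signal, rose under both inhibitors (0.73 ± 0.061, adjusted p = 6.16e-05 and 0.59 ± 0.061, adjusted p = 0.000254, limma). Nupr1, a stress-induced nuclear protein, rose under MS-275 (0.65 ± 0.10, adjusted p = 0.00105, limma).

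The genes that fell in the same cells included the transcription factor gene Atf3, at 26.2 and 23.5 FPKM under vehicle, 11.9 and 12.6 under MS-275 (-0.96 ± 0.094, adjusted p = 0.000128, limma) and 11.4 and 12.1 under CXD101 (-1.02 ± 0.094, adjusted p = 0.000162). Slc7a11, which imports cystine, was at 22.2 and 23.3, 13.2 and 11.95 and 8.29 and 8.03 FPKM (-0.81 ± 0.093, adjusted p = 0.00028 and -1.37 ± 0.093, adjusted p = 3.94e-05, limma). Gdf15, a stress-induced hormone, fell furthest, from 44.2 and 29.1 to 3.85 and 5.34 and 8.73 and 6.25 FPKM (-2.73 ± 0.23, adjusted p = 6.17e-05 and -2.13 ± 0.23, adjusted p = 0.000304, limma). Slc7a1, a transporter of basic amino acids, fell as well (-0.83 ± 0.12, adjusted p = 0.000955 and -0.69 ± 0.12, adjusted p = 0.00317, limma). Chac1 and Nupr1 thus rose, and Atf3 and Slc7a11 fell. The stretches of these 4 genes were shown above because they hold the element letters. No element was recorded for Trib3 and Ppp1r15b, which rose, or for Gdf15 and Slc7a1, which fell. Calls were lost for Nupr1 under MS-275 without MS-275 replicate 2 (0.54), and under CXD101 for Slc7a1 without CXD101 replicate 2 (-0.57) and for Ppp1r15b without vehicle replicate 1 (0.58) and with S100a8 and S100a9 left out of the total (0.57).

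In M-MDSCs none of the 23 stress response genes rose, beside 10.1% of all genes under MS-275 and 5.14% under CXD101. Of the 23, 3 fell under MS-275 and 2 under CXD101, beside 7.32% and 3.0% of all genes. With so few genes, nothing is read about the list from these shares. Atf3 fell from 9.34 and 10.6 FPKM to 3.84 and 3.87 under MS-275 (-1.18 ± 0.11, adjusted p = 9.79e-05, limma) and 4.38 and 3.77 under CXD101 (-1.11 ± 0.11, adjusted p = 0.000422). Gdf15 fell under MS-275, from 18.3 and 16.9 to 5.67 and 6.17 FPKM (-1.43 ± 0.16, adjusted p = 0.00023, limma), and was at 16.9 and 25.2 under CXD101. The other gene that fell, under both inhibitors, was Slc7a11, at 2.93 and 2.65 FPKM under vehicle, 0.993 and 1.21 under MS-275 and 0.905 and 1.16 under CXD101, below the level set for named genes and singled out with its values known. Gdf15 was 1 of the 3 listed genes that differed between the inhibitors in M-MDSCs (-1.64 ± 0.16, adjusted p = 0.00105, limma). The others were Cbs and Gls2, which reached 1 FPKM under MS-275 alone and whose tests are therefore not read, and all 3 were singled out with their values known.

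**Figure D5:**
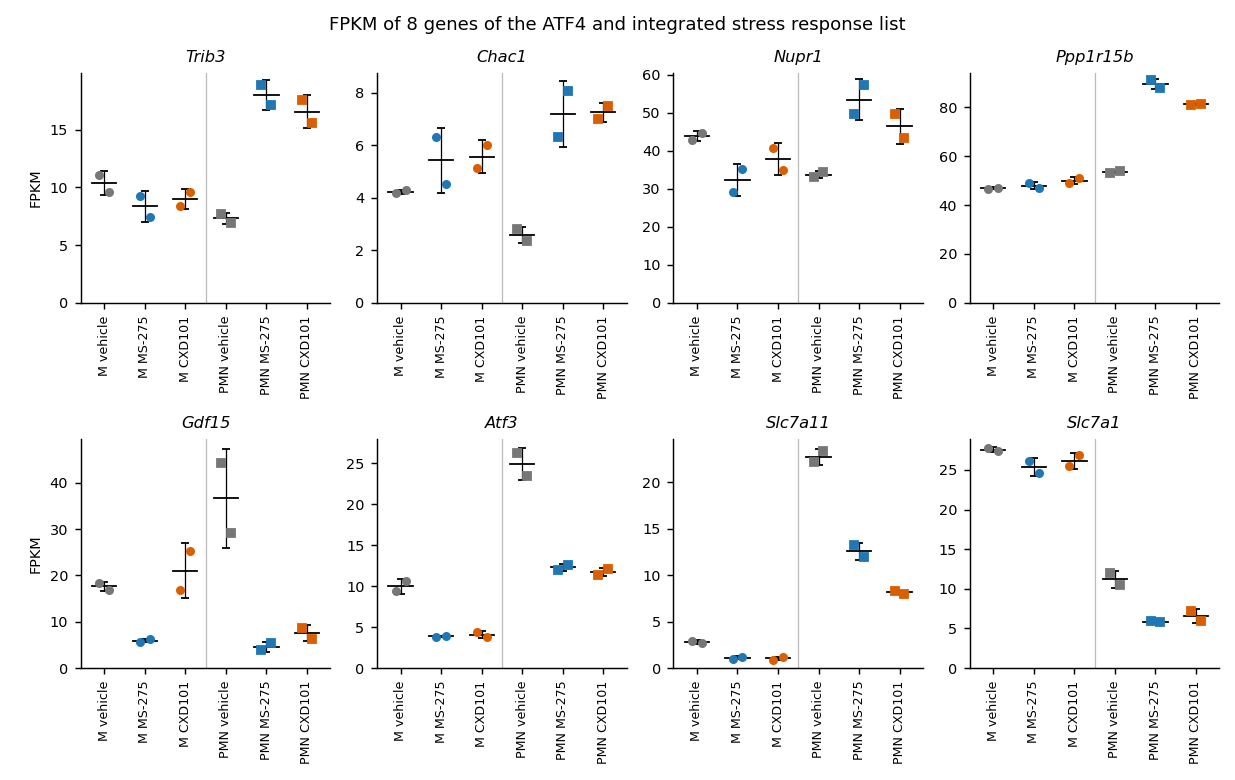
FPKM (vertical axes, from 0) of 8 genes of the ATF4 and integrated stress response list in the 12 libraries, by subset (circles, M-MDSCs; squares, PMN-MDSCs) and treatment; points are libraries, lines the means of 2 libraries and bars the SD. In PMN-MDSCs the upper 4 genes are higher and the lower 4 genes lower under both inhibitors than under vehicle.

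Under vehicle, 58 of 113 listed genes were lower and 8 higher in the PMN-MDSC libraries by the limma test, beside 16.8% and 17.2% of all genes. The lower genes made up 17 of 20 aminoacyl-tRNA synthetases, 14 of 17 purine and thymidylate genes, 9 of 15 genes around aspartate and glutamine, 7 of 14 folate genes, 5 of 14 genes of glycine cleavage and serine use, 3 of 10 methionine and polyamine genes and 3 of 23 stress response genes. Among them, Slc46a1, Pycr1 and Stc2 passed the filter only through M-MDSCs. The largest decreases were those of Dut, which keeps uracil out of DNA (-1.82 ± 0.10, adjusted p = 1.14e-07), Gcat, which breaks threonine products down to glycine (-1.79 ± 0.16, adjusted p = 3.74e-06), and Ahcy, which clears S-adenosylhomocysteine (-1.77 ± 0.088, adjusted p = 5.14e-08). Of the 23 stress response genes, 7 were higher in PMN-MDSCs, beside 17.2% of all genes. Slc7a11 was at 22.2 and 23.3 FPKM in PMN-MDSCs and 2.93 and 2.65 in M-MDSCs (2.65 ± 0.11, adjusted p = 1.26e-08, limma). Ddit3, which encodes CHOP (1.49 ± 0.13, adjusted p = 2.41e-06), and Atf3 (1.23 ± 0.10, adjusted p = 1.55e-06) were higher too (limma). Atf4, in contrast, was lower in PMN-MDSCs, as given above.

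In the model of all 12 libraries, the response of 37 of 113 listed genes to MS-275 differed between the subsets by limma. Of these, 7 were above and 30 below 0, beside 8.65% and 9.48% of all genes. For CXD101 it was 28, 5 above and 23 below 0, beside 7.31% and 6.59% of all genes. The 113 include Amt, Cbs, Cth and Gls2, which passed the filter on low values only through treated libraries. Their tests are not read. Leaving S100a8 and S100a9 out of the total gave 4 above and 40 below 0 for MS-275. Among listed genes with a mean of at least 5 FPKM, the largest differences under MS-275 were those of Mthfs (1.63 ± 0.37, adjusted p = 0.00755), Trib3 (1.48 ± 0.17, adjusted p = 0.000189) and Nupr1 (1.08 ± 0.16, adjusted p = 0.000654) above 0, and of Srm (-1.34 ± 0.16, adjusted p = 0.000212), Gdf15 (-1.31 ± 0.32, adjusted p = 0.0119) and the folate carrier Slc19a1 (-1.28 ± 0.17, adjusted p = 0.000347) below 0 (limma). Slc19a1 was at 13.8 and 14.8 FPKM in M-MDSCs under vehicle and 20.2 and 22.5 under MS-275, against 5.35 and 4.25 and 2.17 and 2.78 in PMN-MDSCs.

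The genes whose pattern over the 12 libraries was most like that of a given gene were found by the root mean square difference of centred log2(FPKM + 1) values. For Mthfd2 they were Mcm4 (0.071), 2810417H13Rik (0.086) and Dtymk (0.089), and for Shmt1 Dut (0.097), Mcm3 (0.15) and Gria3 (0.16). For Mthfd1 they were Impdh2 (0.11), Parp1 (0.12) and Pa2g4 (0.12), for Mthfd1l Gins2 (0.11), Ppa1 (0.11) and Pa2g4 (0.13), and for Psat1 Shmt2 (0.13), Ahcy (0.17) and Itga1 (0.17). For Shmt2 they were Psat1 (0.13), Pdia5 (0.15) and Bzw2 (0.18), so that Psat1 and Shmt2 were each the nearest gene to the other. For Phgdh they were Ppic (0.14), Shmt1 (0.21) and Mybl2 (0.22), and for Psph Cdca7l (0.11), Ubash3a (0.13) and Stmn1 (0.15). Atf4 spanned less than 1 log2 unit between its group means and was left out. These values describe likeness mostly across the gap between the subsets, which all points share.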

How the data were processed

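RNA of sorted tumor MDSCs was sequenced single-end from TruSeq stranded mRNA libraries, 2 per group in 6 groups. The authors deposited FPKM values (fragments per kilobase, scaled to the mapped reads of a library), 1 per gene symbol and library. The submitters' processing notes name TopHat2 2.1.1, Bowtie2 2.2.8, SAMtools 0.1.18, Cuffdiff 2.2.1 and mm10; whether strand was used is not given in the sources used here. FPKM is scaled to the mapped reads of each library, so a few abundant genes can move all others, and no counts were used.

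Genes that reached 1 FPKM in 2 or more libraries of a model were fitted as log2(FPKM + 1) with limma 3.58.1 (R 4.3.3; intensity trend, Benjamini-Hochberg adjustment over all genes tested). Calls required an adjusted p under 0.05 and a fold change above 1.5, after the study's limits. Inhibitors were compared within a subset (6 libraries), subsets and differences in response in a model of all 12. Fold changes on this scale understate those of low genes. Nothing says whether libraries came from separate mice, so p-values and errors measure only the spread between these libraries. Reads per library were estimated from the steps between FPKM values under 0.5.

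The 10 genes and all lists were chosen with earlier results of these data known. Named listed genes were those called, with a mean of at least 5 FPKM in the higher group and no overlap between groups, up to 4 per list and direction (up to 3 over all lists for subsets and differences in response); any other is named as such. The genes most like Asns are not reported here. The code was tested on simulated data. Alternatives were pseudocount 0.1, no filter, a minimum of 5 FPKM, other scalings, no trend, 1 model of 12 libraries, a replicate block, leaving out each library and, added after seeing the data, totals without S100a8 and S100a9. Figures were drawn with matplotlib 3.10.9.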

Additional observations from a re-analysis of the deposited data

Results flagged for a closer look

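The response to an inhibitor differed between the subsets by the interaction test (limma, Benjamini-Hochberg adjustment) for 37 of 113 listed genes under MS-275 and 28 under CXD101. Among all genes, 8.65% were called above and 9.48% below 0 under MS-275, and 7.31% and 6.59% under CXD101. The 113 include Amt, Cbs, Cth and Gls2, whose tests are not read because they passed the filter only through treated libraries. The genes named here have a mean of at least 5 FPKM and the largest differences in each direction, given as the response in PMN-MDSCs minus that in M-MDSCs. For MS-275 they were Mthfs (1.63), Trib3 (1.48), Nupr1 (1.08), Srm (-1.34), Gdf15 (-1.31) and Slc19a1 (-1.28). For CXD101 they were Mthfs (1.30), Trib3 (1.26), Chac1 (0.88), Gdf15 (-2.35), Slc19a1 (-1.26) and Gcsh (-1.25). For CXD101 the call of Mthfs was lost with no filter on low values (1.30) and without any one of vehicle replicate 1 (1.22), vehicle replicate 2 (1.38) or CXD101 replicate 2 (1.05) of M-MDSCs and vehicle replicate 1 (1.10) or CXD101 replicate 2 (1.20) of PMN-MDSCs. That of Chac1 was lost without CXD101 replicate 1 of M-MDSCs (0.78).

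Among the 10 serine and one-carbon genes, some lay on opposite sides of vehicle in the subsets. Every treated library of one subset was above, and every treated library of the other below, its vehicle libraries. This held for Shmt1 under MS-275 (difference of -0.56) and, under CXD101, for Psat1 (-0.74), Shmt1 (-0.70), Asns (-0.48), Atf4 (-0.37) and Mthfd2 (-0.31). Some gaps were small. Psat1 in M-MDSCs was at 136.1 FPKM in a CXD101 library and 135.3 in a vehicle library. Shmt1 in PMN-MDSCs was at 7.59 in an MS-275 library and 7.61 in a vehicle library. The share of all genes split in this way was not counted, so nothing is read from the split. These differences are a description and count as not tested: they were part of the fit across all genes, but the same values chose the genes.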

How the results depend on the processing

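Of 393 recomputed counts of called genes, 371 stayed within 1.5 times the reported count, and no named gene changed direction when called. A minimum of 5 FPKM, which tests fewer genes, gave 1269 called genes instead of 1934 for MS-275 in M-MDSCs (listed genes 6 instead of 11), 591 instead of 901 for CXD101 (3 instead of 6) and 268 instead of 487 between the inhibitors (1 instead of 3). A pseudocount of 0.1 gave 1 listed gene instead of 3 between the inhibitors in M-MDSCs, and 1 instead of 0 in PMN-MDSCs, as did quantile normalization there. Between the inhibitors in PMN-MDSCs, 90 genes were called, 4 with no filter, 35 with no intensity trend and 151 with all 12 libraries in one model; the cause was not tested. Leaving out 1 library gave 10 to 23 genes there, 308 to 388 genes and 1 to 4 listed genes between the inhibitors in M-MDSCs, and 0 to 1 of the 10 genes for CXD101 in M-MDSCs. Quantile normalization moved Shmt1 past 1.5-fold in the difference in response to MS-275 (-0.65). Calls of named listed genes were kept in 1139 recomputations and lost in 25, which are given beside each gene.

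Deviations of equally numbered libraries correlated with r from -0.126 to 0.179. Whether equally numbered libraries came from the same mice is not stated, and these correlations cannot decide it. With a replicate block, 41 listed genes were called for MS-275 and 31 for CXD101 in PMN-MDSCs, the same counts as without it, and 36 instead of 37 and 27 instead of 28 for the differences in response. The counts of the 10 genes were the same with the block. About 7140000 to 10800000 reads per library limit what can be seen of genes near 1 FPKM.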

Other observations

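Several genes of transsulfuration, glutamine use and glycine cleavage were below 1 FPKM in both M-MDSC vehicle libraries and higher under MS-275. They were singled out after their values were seen, lie below the level set for named genes and passed the filter on low values only through treated libraries, so their levels are given without a test. Cth, which encodes cystathionine gamma-lyase and makes cysteine, was at 0.357 and 0.559 FPKM under vehicle, 4.10 and 3.68 under MS-275 and 2.74 and 2.64 under CXD101. Cbs, the enzyme before it, was at 0.127 and 0.132 FPKM under vehicle, 1.14 and 1.11 under MS-275 and 0.215 and 0.319 under CXD101. Gls2, a glutaminase, was at 0 and 0.0456 FPKM under vehicle, 1.27 and 1.40 under MS-275 and 0.301 and 0.331 under CXD101. Amt was at 0.17 and 0.265 FPKM under vehicle, 1.69 and 2.62 under MS-275 and 1.64 and 0.824 under CXD101. In PMN-MDSCs Cth stayed between 0.146 and 0.698 FPKM. The markers of other cells that moved in the same M-MDSC libraries are given in the report; their part in these values was not tested.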
